A study of Mus musculus with 6 samples.

Results

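Integrins are the cell surface receptors that tie a fibroblast to its matrix, and focal adhesion proteins link them on the inside to actin and to kinases. The 35 genes described here, of 28293 genes in the count files, were chosen by gene symbol. They are 19 integrin receptor subunits, 12 alpha and 7 beta, and 16 adaptors, a class that here includes kinases, docking proteins and actin linkers. All 35 had a row in every file.

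Polyadenylated RNA was sequenced from a cell line labelled mouse dermal fibroblast, in 3 libraries of Lap2alpha knockout cells (KO) and 3 libraries of wild-type cells (WT), grown in the same serum-containing medium. LAP2alpha is a nucleoplasmic partner of A-type lamins made from the Tmpo gene. The series compared expression in the presence and absence of this protein. The sources used here do not give how the knockout was made, the mouse strain and age, or whether a group is a single clone. The labels do not say whether replicates came from separate cultures, so p-values cover no more than the library-to-library spread, which may be technical.

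The libraries held 25768678 to 27281473 counts in KO and 22159339 to 26553616 counts in WT. Tmpo had 135, 122 and 131 CPM (a count scaled to a library of 1000000 counts) in KO, against 254, 248.9 and 252 CPM in WT. Its log2 fold change was -1.04 ± 0.0549 (SE; edgeR adjusted p = 4.92e-08), and the gene-level count also includes the membrane-bound LAP2 isoforms. Pearson's r of log2 CPM across genes ranged over 0.993 to 0.996 for libraries of the same group and 0.912 to 0.918 across groups. Genes differed between the groups on a broad front: of 15081 tested genes, 5678 (37.7%) were higher and 5652 (37.5%) lower in KO at an edgeR adjusted p under 0.05, the threshold at which a gene is called here. All 12 fibroblast markers were tested, and 11 were higher in KO while Thy1 was lower, with summed levels of 23129 to 24563 CPM in KO and 6106 to 6492 CPM in WT.

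An integrin is a heterodimer of an alpha and a beta chain, and the alpha chain largely sets which matrix protein is bound. In fibroblasts the beta 1 chain pairs with collagen, laminin and fibronectin receptors, and the alpha v chain pairs with several beta chains that read the Arg-Gly-Asp (RGD) motif. On the inside, talin and kindlin bind the beta tail and switch the receptor on, the ILK-PINCH-parvin complex and vinculin fasten it to actin, and focal adhesion kinase and Src start signalling with paxillin and p130Cas as docking proteins.

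RefSeq promoter windows (GRCm38.p6, 250 bases before to 50 after the start) were matched for 27 members, 15 receptor subunits and 12 adaptors. The median number of CpG dinucleotides per window was 13 in the receptor subunits and 31.5 in the adaptors, against 7 over the windows of all 27025 genes, and median GC content was 59.3%, 68.7% and 52.7% in the same order. Here and below, all windows include genes not expressed in these cells, an unlike set. Of the members with a window, 11 of 15 receptor subunits and all 12 adaptors passed the low-count filter. The first 4 windows below are from 4 of the 6 members with a window that were called with at least a 2-fold change, from a receptor promoter with 5 CpGs to an adaptor promoter with 37, with each CpG in capitals. The windows of the other such members, Itga1 with 12 CpGs and Itga10 with 6, are not shown. The fifth is that of Vcl, a member with little difference, with its CArG box, the motif of serum response factor, in capitals.
Itgb7 (chr15:102231886-102232185, minus strand): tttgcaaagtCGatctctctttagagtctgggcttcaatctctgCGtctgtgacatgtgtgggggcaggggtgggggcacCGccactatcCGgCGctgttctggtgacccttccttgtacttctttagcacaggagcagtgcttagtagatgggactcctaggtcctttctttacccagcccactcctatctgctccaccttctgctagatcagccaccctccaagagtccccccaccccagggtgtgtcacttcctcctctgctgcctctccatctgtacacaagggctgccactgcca
Itga8 (chr2:12301895-12302194, minus strand): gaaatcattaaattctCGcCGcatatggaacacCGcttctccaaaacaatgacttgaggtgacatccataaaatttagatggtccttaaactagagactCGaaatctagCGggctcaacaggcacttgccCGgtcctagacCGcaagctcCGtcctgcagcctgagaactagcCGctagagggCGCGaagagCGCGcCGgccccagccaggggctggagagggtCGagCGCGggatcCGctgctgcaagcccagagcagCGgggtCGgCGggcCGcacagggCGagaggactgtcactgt
Itga3 (chr11:95076665-95076964, minus strand): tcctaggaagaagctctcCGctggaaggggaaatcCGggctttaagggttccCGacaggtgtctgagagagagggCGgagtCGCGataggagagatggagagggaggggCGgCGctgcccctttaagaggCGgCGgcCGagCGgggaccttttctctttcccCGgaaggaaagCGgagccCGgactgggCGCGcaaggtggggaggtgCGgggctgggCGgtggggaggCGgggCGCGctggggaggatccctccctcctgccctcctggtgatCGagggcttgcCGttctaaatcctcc
Tns1 (chr1:74124499-74124798, minus strand): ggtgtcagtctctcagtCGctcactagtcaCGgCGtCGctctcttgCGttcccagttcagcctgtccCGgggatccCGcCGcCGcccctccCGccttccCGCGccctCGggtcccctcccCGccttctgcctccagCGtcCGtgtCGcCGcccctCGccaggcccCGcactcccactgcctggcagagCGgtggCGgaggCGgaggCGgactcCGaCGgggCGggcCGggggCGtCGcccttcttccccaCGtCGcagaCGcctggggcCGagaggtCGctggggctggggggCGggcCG
Vcl (chr14:20929148-20929447, plus strand): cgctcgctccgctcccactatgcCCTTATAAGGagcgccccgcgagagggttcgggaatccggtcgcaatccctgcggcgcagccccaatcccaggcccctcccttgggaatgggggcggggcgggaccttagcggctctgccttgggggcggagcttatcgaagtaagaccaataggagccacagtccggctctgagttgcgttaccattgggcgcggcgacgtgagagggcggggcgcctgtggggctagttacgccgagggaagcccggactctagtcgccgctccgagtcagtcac

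Of the members with a window that were called with at least a 2-fold change, all but Itga3 (24 CpGs) were higher in KO. Those higher were Itgb7 (5 CpGs), Itga10 (6), Itga1 (12), Itga8 (23) and Tns1 (37). Whether the number of CpGs goes with the direction was not tested. Of the motifs searched on both strands, GGGCGG, the SP1 site, which holds a CpG itself, was in 7 of 15 receptor windows (46.7%) and 10 of 12 adaptor windows (83.3%), against 35.9% of all windows. The CArG box was in 0 receptor windows and in the windows of Vcl and Fermt2 (16.7% of adaptors), against 1.59% of all. TATAAA was in 0 of 27 member windows and 14.2% of all. The TEAD letters GGAATG were in 2 receptor and 2 adaptor windows (14.7% of all), the AP-1 letters TGANTCA in 1 and 2 (7.92% of all), and the RUNX letters TGTGGT in 1 and 1 (16.9% of all). These matches describe letters in the windows, not bound sites.

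The receptor subunits had a larger median fold than the adaptors or all tested genes. Of 19 receptor subunits, 15 passed the low-count filter, 9 were higher in KO, 5 were lower and 1, Itga5, was not called. Of 16 adaptors all were tested, 7 were higher, 4 were lower and 5 were not called. Called members were thus 93.3% of the tested receptor subunits and 68.8% of the adaptors, against 75.1% of all tested genes. The adaptor share is near that of all genes, since 1 gene is 6.25% of 16 adaptors. Of the members, 8 of 15 receptor subunits (53.3%) and 1 of 16 adaptors (6.25%) were called with a change of at least 2-fold, against 28.1% of all tested genes. The median size of the log2 fold change, sign left aside, was 1.12 for receptor subunits, 0.39 for adaptors and 0.58 for all tested genes. The signed medians were 0.77, 0.07 and 0.01, and that of the adaptors was 0.000956 without WT replicate 1. Itga8 passed the filter through its KO libraries alone. Among the 14 receptor subunits with at least 5 CPM in a group, which leaves Itga8 out, 7 were called with at least 2-fold and the median size was 0.98. The same figures over the 11307 genes at that level were 22.8% and 0.52. Itga1, Itga10 and Itgb3 are among those 7 and reached 5 CPM in KO alone, with 1.42, 3.27 and 4.06 CPM in WT. The figure of 7 thus also rests in part on genes kept through the group where they are high. No test was made between the classes, since genes of a list are not replicates. The members were also chosen with earlier results of these data known. When the test asked for more than a 1.5-fold change, 8 receptor subunits were higher and 2 lower, and 2 adaptors were higher and 1 lower, against 20.5% higher and 16.8% lower among all tested genes.

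**Figure D1:**
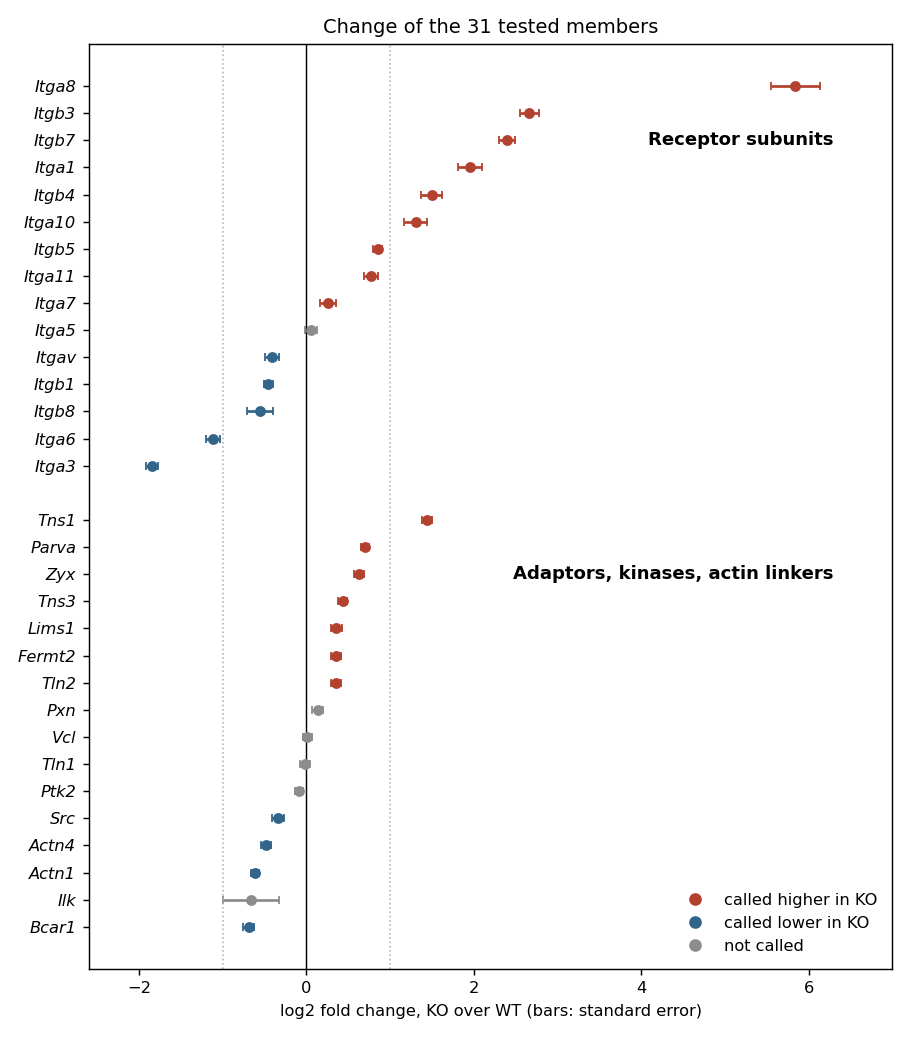
Log2 fold change, KO over WT, of the 31 tested members (horizontal axis), with receptor subunits in the upper block and adaptors in the lower; points are edgeR estimates, bars are standard errors, and dotted lines mark a 2-fold change. Receptor subunits run from -1.84 (Itga3) to 5.84 (Itga8), adaptors from -0.69 (Bcar1) to 1.44 (Tns1).

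**Figure D2:**
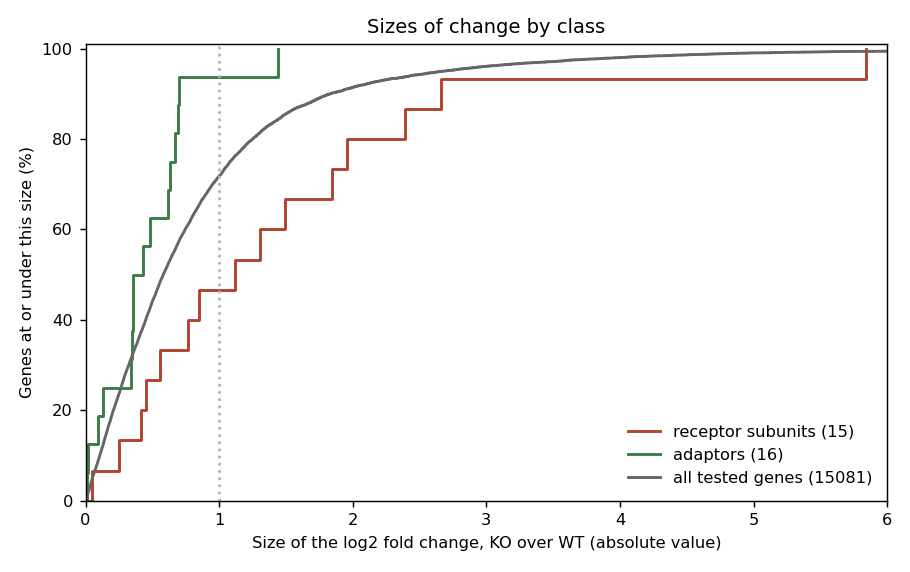
Cumulative share of genes (%, vertical axis) whose log2 fold change has at most the size on the horizontal axis, for 15 receptor subunits, 16 adaptors and all 15081 tested genes; the dotted line marks 2-fold. The receptor curve lies to the right of the curve of all genes over most of its length and the adaptor curve ends at 1.44.

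The collagen-binding alpha subunits were higher in KO. Of the 4 members that bind collagen with beta 1, 3 rose and Itga2 was under the filter, with 17 reads in KO and 7 in WT over 3 libraries each. Itga1 (ENSMUSG00000042284, chr13:114953096-115101964, minus strand, GRCm38), the alpha 1 chain of a collagen IV and collagen I receptor, had 6.27, 5.92 and 5.36 CPM in KO, against 1.26, 1.58 and 1.42 CPM in WT. The 2 groups did not overlap, which held for 76.8% of all tested genes, and the log2 fold change was 1.95 ± 0.148 (SE; edgeR adjusted p = 6.90e-07). Itga10 (ENSMUSG00000090210, chr3:96645584-96664519, plus strand), a collagen receptor chain best known from cartilage, had 8.03, 9.16 and 8.38 CPM in KO, against 3.47, 3.65 and 2.68 CPM in WT. Its groups were again apart, at a log2 fold change of 1.30 ± 0.135 (SE; edgeR's adjusted p = 7.91e-06). A gene model on the same strand covers 33.5% of the exonic bases of Itga10. Itga11, the alpha chain of a fibrillar collagen receptor of fibroblasts, averaged 23.1 ± 1.51 CPM in KO and 12.8 ± 0.671 CPM in WT (SD, n = 3 each), a log2 fold change of 0.77 (edgeR adjusted p = 8.27e-06). Summed per kilobase of exon, the collagen-binding chains stood at 6.498 ± 0.284 CPM per kb in KO and 3.22 ± 0.114 CPM per kb in WT.

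The laminin-binding alpha subunits were lower in KO except Itga7. Itga3 (ENSMUSG00000001507, chr11:95044474-95076801, minus strand), the alpha chain of a laminin receptor of epithelia and many cultured cells, had 49.6, 51.8 and 55.7 CPM in KO, against 163, 186 and 186 CPM in WT. All KO values lay below all WT values, and its log2 fold change was the most negative among the tested members, at -1.84 ± 0.0704 (SE; edgeR adjusted p = 5.48e-09). Itga6 (ENSMUSG00000027111, chr2:71745616-71858416, plus strand), which pairs with beta 1 or with beta 4 in hemidesmosomes, had 29.3, 24.1 and 24.3 CPM in KO, against 56.4, 52.3 and 51.0 CPM in WT. Here too the groups were apart (log2 fold change -1.12 ± 0.0835, SE; edgeR adjusted p = 6.36e-07). Itga7, the laminin receptor chain of muscle, averaged 24.0 ± 1.46 CPM in KO and 19.0 ± 2.62 CPM in WT (SD, n = 3 each), a log2 fold change of 0.25 (edgeR adjusted p = 0.0377). That call was lost without KO replicate 2 (adjusted p = 0.116), KO replicate 3 (0.0837), WT replicate 1 (0.184) or WT replicate 3 (0.125), with log2 fold changes of 0.22, 0.24, 0.14 and 0.23 in the same order. The summed level of the 3 chains was 15.01 ± 0.374 CPM per kb in KO and 39.5 ± 2.31 CPM per kb in WT.

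Of the alpha subunits that recognise RGD, 1 rose, 1 fell and 1 was not called. Itga8 (ENSMUSG00000026768, chr2:12106632-12301922, minus strand), the partner of beta 1 in a nephronectin receptor of mesenchymal cells, had 4.95, 4.15 and 4.11 CPM in KO, against 0.0903, 0.0753 and 0.0406 CPM in WT. This is 351 reads in KO and 5 reads in WT, a ratio of 64.7 after scaling to library totals (95% Clopper-Pearson interval 27.5 to 201, counting error only). The fitted log2 fold change was 5.84 ± 0.290 (SE; edgeR adjusted p = 3.20e-08). Itgav, the alpha v chain of vitronectin and latent TGF-beta receptors, had 227, 198 and 192 CPM in KO, against 279.9, 235 and 266 CPM in WT. The groups came close without overlapping (log2 fold change -0.41 ± 0.0801, SE; edgeR adjusted p = 8.12e-04). Itga5, the alpha chain of the fibronectin receptor, had 158, 166 and 179 CPM in KO, against 137, 159 and 164 CPM in WT. Those ranges overlapped, and the log2 fold change was 0.05 ± 0.0750 (SE; edgeR adjusted p = 0.55). Itga4 and Itga9, whose products bind VCAM-1, fibronectin or tenascin-C, were under the filter, with 3 and 5 reads in KO and 0 and 1 reads in WT.

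**Figure D3:**
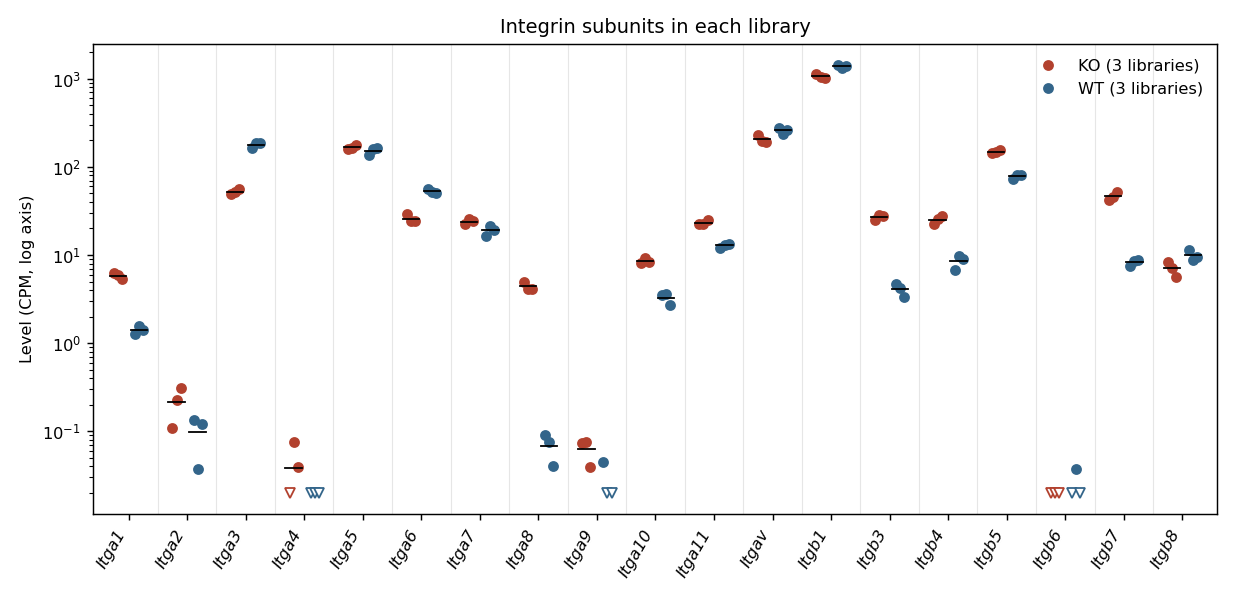
Level of the 19 integrin subunits in each library, in CPM on a log axis; points are libraries, KO left of WT for each gene, bars are group means, and open triangles at the foot of the plot are libraries with 0 reads. Itgb1 lies highest, from 1012 to 1141 CPM in KO and 1339.5 to 1421 CPM in WT, Itga8 has its KO libraries between 4.11 and 4.95 CPM and its WT libraries under 0.1 CPM, and Itga2, Itga4, Itga9 and Itgb6 are at the foot in both groups.

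Among beta subunits, the common beta 1 chain was lower in KO and 4 less abundant chains were higher. Itgb1, which pairs with most of the alpha chains above, had 1141, 1048 and 1012 CPM in KO, against 1421, 1339.5 and 1396 CPM in WT. No KO library reached the lowest WT library, and the log2 fold change was -0.45 ± 0.0575 (SE; edgeR adjusted p = 3.71e-05). The partners of alpha v did not move together: Itgb3 and Itgb5 rose, Itgb8 fell, and Itgb6, the epithelial partner, had 0 reads in KO and 1 read in WT. Itgb3 (ENSMUSG00000020689, chr11:104608000-104670476, plus strand), the beta chain of the classical vitronectin receptor, had 25.3, 28.1 and 27.9 CPM in KO, against 4.65, 4.22 and 3.33 CPM in WT. Its KO libraries were all above its WT libraries (log2 fold change 2.66 ± 0.115, SE; edgeR adjusted p = 1.29e-08). Itgb5, which forms another vitronectin receptor, averaged 148 ± 5.81 CPM in KO and 78.1 ± 3.83 CPM in WT (SD, n = 3 each), a log2 fold change of 0.85 (edgeR adjusted p = 3.00e-07). Itgb8, whose product activates latent TGF-beta, averaged 7.05 ± 1.42 CPM in KO and 9.88 ± 1.41 CPM in WT (SD, n = 3 each), a log2 fold change of -0.56 (edgeR adjusted p = 0.00726). Summed per length, these alpha v partners stood at 47.0 ± 1.68 CPM per kb in KO and 23.6 ± 0.874 CPM per kb in WT.

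The remaining beta chains, Itgb7 and Itgb4, were both higher in KO. Itgb7 (ENSMUSG00000001281, chr15:102215995-102231944, minus strand), the partner of alpha 4 and alpha E in homing receptors of lymphocytes, had 42.2, 45.1 and 51.5 CPM in KO, against 7.58, 8.55 and 8.88 CPM in WT. The lowest KO library was well above the highest WT library, and the log2 fold change was 2.39 ± 0.0969 (SE; edgeR adjusted p = 8.06e-09). Of its known alpha partners, Itga4 was at 3 reads in KO and 0 in WT, and Itgae averaged 1.91 CPM in KO and 1.01 CPM in WT. Itgb4 (ENSMUSG00000020758, chr11:115974709-116008412, plus strand), the hemidesmosome chain whose known partner is alpha 6, had 22.5, 25.6 and 27.5 CPM in KO, against 6.72, 9.68 and 8.92 CPM in WT. The groups were apart, at 1.49 ± 0.127 on the log2 scale (SE; edgeR adjusted p = 1.73e-06), while Itga6 was lower in KO.

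Leukocyte, pericyte and epithelial marker levels are given beside these chains because some of them are known from such cells. Of 9 leukocyte markers 5 had a row, and their summed level was 20.1 to 21.8 CPM in KO and 7.94 to 9.08 CPM in WT, with Ptprc, which marks leukocytes in general, averaging 0 CPM in KO libraries and 0.0150 CPM in WT libraries. Of the 4 leukocyte markers tested 3 were higher and 1 was not called. Itgb2, among the higher, is itself an integrin chain and is counted again below. It made up 10.0 CPM of the leukocyte sum in KO and 3.67 CPM in WT. Of 7 smooth muscle cell or pericyte markers 6 had a row and 3 were higher, with sums of 45.2 to 48.4 CPM in KO and 6.86 to 9.57 CPM in WT. Notch3 made up most of that, with 41.1 CPM in KO libraries and 7.24 CPM in WT libraries. The other higher markers were Des (2.93 CPM in KO and 0.607 CPM in WT) and Rgs5 (1.73 CPM in KO and 0.0135 CPM in WT). Myh11, under the filter, averaged 0.150 CPM in KO and 0.108 CPM in WT. Of 9 keratinocyte markers 7 had a row, with sums of 4.90 to 6.60 CPM in KO and 6.82 to 8.62 CPM in WT. The 2 tested were lower, Krt10 (4.14 CPM in KO and 5.71 CPM in WT) and Cdh1 (1.08 CPM in KO and 2.01 CPM in WT). Krt14, under the filter, averaged 0.0503 CPM in KO and 0.0286 CPM in WT. Endothelial markers (6 of 7 with a row) summed to 4.502 to 4.64 CPM in KO and 1.54 to 1.94 CPM in WT. Vwf was higher (3.93 CPM in KO and 0.380 CPM in WT) and Cdh5 lower (0.176 CPM in KO and 0.920 CPM in WT). Pecam1, under the filter, averaged 0.148 CPM in KO libraries and 0.167 CPM in WT libraries. Melanocyte or Schwann cell markers (6 of 7 with a row) summed to 0.513 to 1.06 CPM in KO and 1.21 to 2.98 CPM in WT, with the 1 tested lower, and skeletal muscle markers (1 of 6 with a row) to 0.116 to 0.339 CPM in KO and 0.113 to 0.271 CPM in WT. The part of other cell types in the values of the integrin chains was not tested, and in bulk RNA a change in the number of cells that express a chain cannot be told apart from a change in RNA per cell.

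Because exons differ in length, levels were compared between subunits per kilobase. Among alpha chains in KO, Itga5 stood at 34.0 ± 2.11 CPM per kb, Itgav at 19.2 ± 1.74 and Itga3 at 9.18 ± 0.543 (mean ± SD, n = 3). Itga11 followed at 4.51 ± 0.294 CPM per kb, and Itga7 at 2.97 ± 0.180 and Itga6 at 2.87 ± 0.327 did not differ beyond their spread. In WT, Itga3 at 31.2 ± 2.32 and Itga5 at 31.1 ± 2.97 CPM per kb did not differ beyond their spread, Itgav stood at 24.2 ± 2.15, and Itga6 at 5.90 ± 0.312 came next. The share of Itga3 in the summed level of the 12 alpha chains was 12.2 ± 0.546% in KO and 31.8 ± 1.30% in WT, and that of Itga5 was 45.1 ± 2.15% in KO and 31.7 ± 1.83% in WT, although Itga5 itself was not called. Itgav held 25.5 ± 2.55% in KO and 24.8 ± 2.85% in WT. Without the length correction Itgav would stand above Itga5, with 39.7% and 32.4% of the alpha chain counts in KO and 38.2% and 22.5% in WT. The summed level of all alpha chains was 75.3 ± 1.48 CPM per kb in KO and 98.0 ± 4.05 CPM per kb in WT.

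Beta chains kept Itgb1 in the lead in both groups, at 261 ± 16.3 CPM per kb in KO and 339 ± 10.2 CPM per kb in WT. Its share of the 7 beta chains was 79.5 ± 1.85% in KO and 92.4 ± 0.514% in WT. Itgb5 held 12.7 ± 0.927% in KO and 5.99 ± 0.414% in WT, and Itgb7 held 5.10 ± 0.695% in KO and 0.820 ± 0.0774% in WT. Itgb3 held 1.40 ± 0.133% in KO and 0.188 ± 0.0311% in WT, and Itgb4 1.10 ± 0.149% in KO and 0.329 ± 0.0665% in WT. Among the tested alpha and beta chains, the shares of all but Itgav and Itgb8 differed by more than the SDs of both groups together. The shares are given as a description with no test, and an exact permutation test of 3 libraries against 3 could not pass 0.05.

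**Figure D4:**
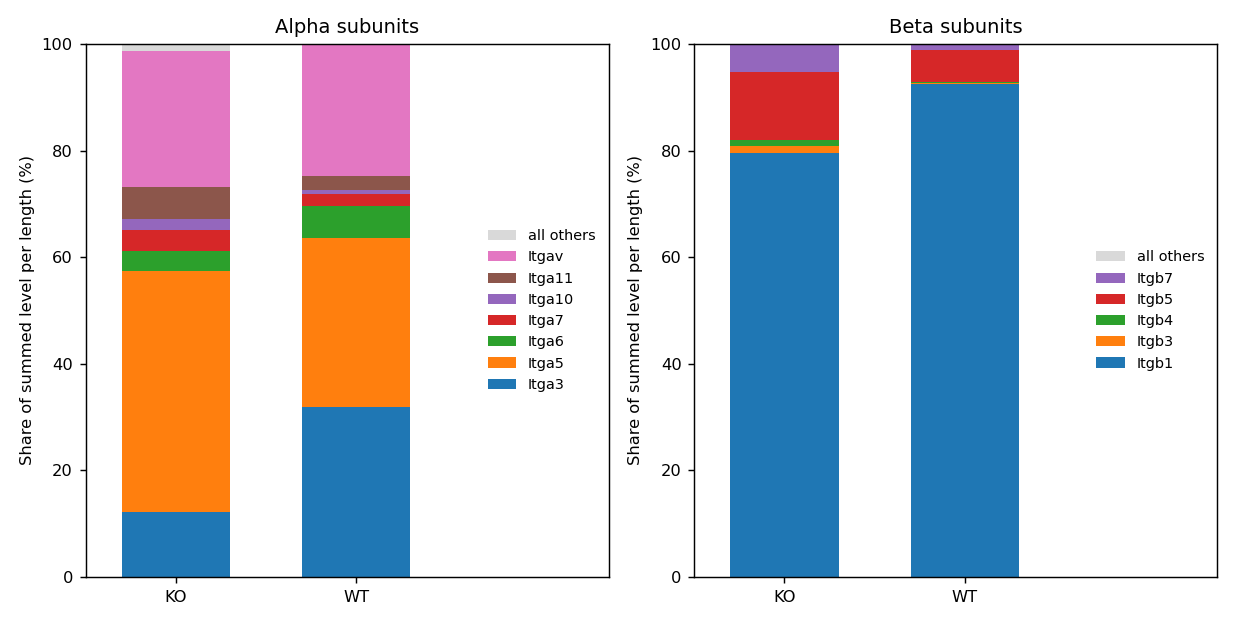
Share (%) of each alpha chain in the summed per-length level of 12 alpha chains (left) and of each beta chain in that of 7 beta chains (right), as means of 3 KO and 3 WT libraries, KO bar left of WT bar. The Itga3 segment is 12.2% in KO and 31.8% in WT, and the Itgb1 segment is 79.5% in KO and 92.4% in WT.

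Of the integrin activators, talin 1 was not called, and talin 2 and kindlin-2 were modestly higher in KO. Tln1, the main talin of fibroblasts, which links the beta tail to actin, had 297, 308 and 328 CPM in KO, against 279.7, 298 and 319 CPM in WT. The ranges overlapped, and the log2 fold change was -0.02 ± 0.0616 (SE; edgeR adjusted p = 0.769). Tln2, the talin enriched in muscle and brain, averaged 33.6 ± 0.689 CPM in KO and 24.98 ± 0.760 CPM in WT (SD, n = 3 each), a log2 fold change of 0.35 (edgeR adjusted p = 3.02e-04). Fermt2, which encodes kindlin-2, averaged 131 ± 5.36 CPM in KO and 97.4 ± 4.20 CPM in WT (SD, n = 3 each), also a log2 fold change of 0.35 (edgeR adjusted p = 2.20e-04).

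In the ILK-PINCH-parvin complex, which bridges integrin tails and actin, Parva and Lims1 rose and Ilk was not called. Parva, alpha-parvin, averaged 221 ± 4.0 CPM in KO and 129 ± 6.43 CPM in WT (SD, n = 3 each), a log2 fold change of 0.70 (edgeR adjusted p = 6.40e-07). Lims1, which encodes PINCH1, averaged 107 ± 7.92 CPM in KO and 78.9 ± 5.34 CPM in WT (SD, n = 3 each), a log2 fold change of 0.36 (edgeR adjusted p = 8.45e-04). Ilk, the pseudokinase at the centre of the complex, had 3.52, 2.83 and 6.60 CPM in KO, against 3.84, 8.81 and 6.65 CPM in WT, at -0.67 ± 0.333 on the log2 scale (SE; edgeR adjusted p = 0.0927). The Ilk libraries overlapped and spread widely within each group, and the call depended on which library entered. Without KO replicate 3 the log2 fold change was -1.12 (adjusted p = 0.00504), and without WT replicate 1 it was -0.95 (adjusted p = 0.0118). Without WT replicate 2 it was -0.36 (adjusted p = 0.362), and without KO replicate 2 it was -0.44 (adjusted p = 0.265). Genes on the opposite strand, Rrp8 and Taf10, cover 89.7% of the exonic bases of Ilk. The 24 protein-coding genes with at least 80% of their exonic bases so covered had a median of 0.388 CPM over the 6 libraries (quartiles 0.0252 and 6.91). The other 16394 had a median of 13.2 CPM (quartiles 0.259 and 49.3), so the ranges overlap, and the reason for the difference was not tested. The way the authors counted reads in such overlaps is not given in the sources used here, so the Ilk level is uncertain.

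Kinases and docking proteins had no member called higher in KO, with 2 lower and 2 not called. Ptk2, focal adhesion kinase, had 119, 120.0 and 121 CPM in KO, against 123, 117 and 124 CPM in WT. All 3 KO values lay inside the WT range, and the log2 fold change was -0.09 ± 0.0490 (SE; edgeR adjusted p = 0.107). Pxn, paxillin, the scaffold of the early adhesion, had 65.5, 66.6 and 66.2 CPM in KO, against 51.6, 59.4 and 60.3 CPM in WT. Those CPM values were apart, yet the TMM-scaled log2 fold change of 0.13 ± 0.0632 (SE) was not called (edgeR adjusted p = 0.0773). With library totals alone as the scaling it was 0.21 (adjusted p = 0.0129), and without WT replicate 1 it was 0.05 (adjusted p = 0.465). Src, the tyrosine kinase that joins focal adhesion kinase, averaged 69.4 ± 5.27 CPM in KO and 83.2 ± 3.99 CPM in WT (SD, n = 3 each), a log2 fold change of -0.34 (edgeR adjusted p = 9.52e-04). Bcar1, which encodes the Src substrate p130Cas, averaged 103 ± 6.64 CPM in KO and 158 ± 6.64 CPM in WT (SD, n = 3 each), a log2 fold change of -0.69 (edgeR adjusted p = 2.42e-06).

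Actin linkers moved both ways, with both tensins and zyxin higher in KO and both alpha-actinins lower. Tns1 (ENSMUSG00000055322, chr1:73910231-74124449, minus strand), a tensin of the mature fibrillar adhesion, had 243, 251 and 251 CPM in KO, against 81.3, 84.4 and 93.9 CPM in WT. It was the 1 adaptor with more than a 2-fold change, and its groups were far apart (log2 fold change 1.44 ± 0.0598, SE; edgeR adjusted p = 9.42e-09). Tns3, a related tensin, averaged 141 ± 1.27 CPM in KO and 98.8 ± 4.90 CPM in WT (SD, n = 3 each), a log2 fold change of 0.43 (edgeR adjusted p = 2.80e-05). Zyx, zyxin, which gathers at adhesions and stress fibres under tension, averaged 302 ± 19.0 CPM in KO and 185 ± 8.18 CPM in WT (SD, n = 3 each), a log2 fold change of 0.63 (edgeR adjusted p = 4.68e-06). The alpha-actinins crosslink actin filaments. Actn1 averaged 196 ± 8.498 CPM in KO and 284 ± 3.36 CPM in WT (SD, n = 3 each; log2 fold change -0.61, edgeR adjusted p = 1.51e-06). Actn4 averaged 228 ± 13.1 CPM in KO and 301 ± 11.9 CPM in WT (SD, n = 3 each; log2 fold change -0.48, edgeR adjusted p = 2.77e-05). Vcl, vinculin, which reinforces the talin-actin link under load, had 156, 156 and 160.5 CPM in KO, against 141, 148 and 155 CPM in WT. The CPM values were narrowly apart, but after TMM scaling the log2 fold change was 0.01 ± 0.0520 (SE; edgeR adjusted p = 0.877). Ap3m1 on the opposite strand covers 25.5% of the exonic bases of Vcl.

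**Figure D5:**
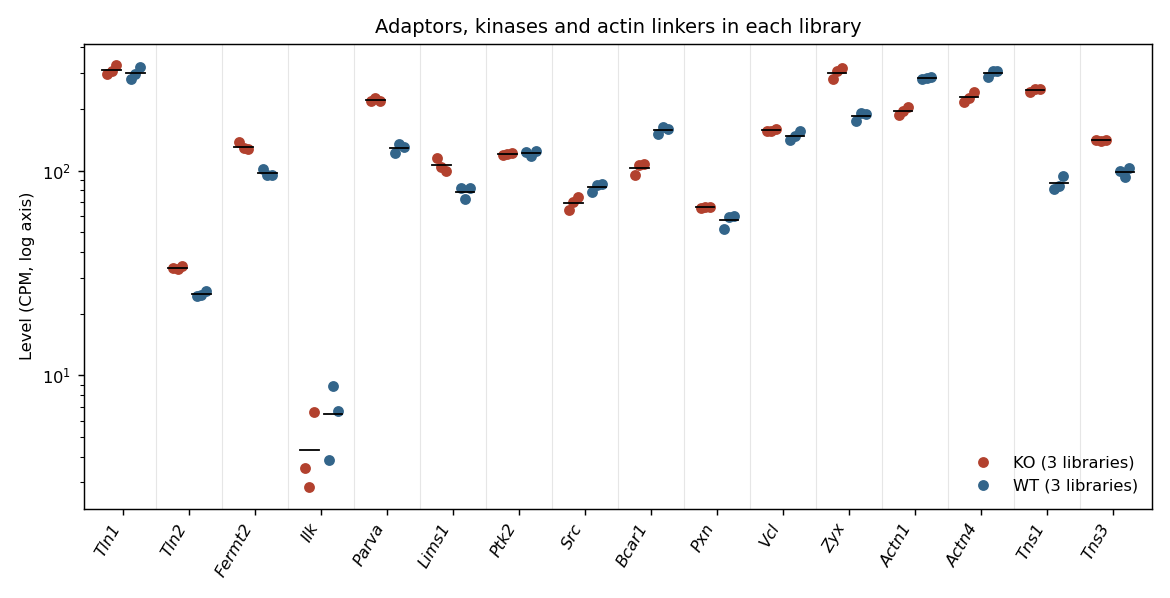
Level of the 16 adaptors, kinases and actin linkers in each library, in CPM on a log axis; points are libraries, KO left of WT for each gene, and bars are group means. The KO and WT points of Tns1 are the farthest apart, at 243 to 251 CPM in KO and 81.3 to 93.9 CPM in WT, those of Tln1 and Ptk2 overlap, and Ilk lies below 10 CPM with the widest spread.

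The summed level of the receptor subunits was 1798 to 1912 CPM in KO and 2124 to 2209.9 CPM in WT, and that of the adaptors was 2373 to 2499 CPM in KO and 2083 to 2225 CPM in WT. Itgb1 accounts for 1067 ± 66.7 CPM of the receptor sum in KO and 1385 ± 41.7 CPM in WT. In CPM, the receptor sum was thus lower in KO and the adaptor sum higher, while more members of each class rose than fell. Per kb of exon the adaptors did not move together. Kinases and docking proteins summed to 56.8 CPM per kb in KO and 71.0 in WT, and the ILK-PINCH-parvin genes to 45.1 in KO and 31.2 in WT. Activators stood at 58.8 in KO and 50.6 in WT, and actin linkers at 176 ± 7.55 in KO and 167 ± 5.12 in WT (mean ± SD). These sums are not TMM-scaled, and TMM shifts log2 fold changes by -0.08.

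Genes of the same pathway that are not members were counted in the same way. They were listed with earlier results of these data known. Of 69 other adhesion genes in the files, 61 were tested, 33 were higher, 18 were lower and 10 did not pass. Called genes were thus 83.6% of this list, against 75.1% of all tested genes, and 24.6% were called with at least 2-fold, against 28.1%. Their median log2 fold change was 0.30. The 6 called genes with the smallest p and at least 5 CPM were Ptk2b, Cav1, Pdlim1, Tes, Shc1 and Kank2. Ptk2b, which encodes Pyk2, the relative of focal adhesion kinase, averaged 39.0 CPM in KO and 0.825 CPM in WT (log2 fold change 5.47, edgeR adjusted p = 2.20e-10), whereas Ptk2 was not called. Cav1, caveolin-1, averaged 744 CPM in KO and 198 CPM in WT, Tes, testin, 228 CPM in KO and 90.0 CPM in WT, Shc1, a signalling adaptor, 203 CPM in KO and 82.3 CPM in WT, and Kank2, a talin-binding protein, 232 CPM in KO and 99.0 CPM in WT. Pdlim1, which binds alpha-actinin, was lower, with 14.1 CPM in KO and 44.8 CPM in WT, the direction of Actn1 and Actn4. All 3 tested integrin subunits outside the member list, named after their values were seen, were higher in KO, as were 37.7% of all tested genes. Itga2b, the platelet partner of beta 3, averaged 15.8 CPM in KO and 2.20 CPM in WT, Itgb2 of leukocytes 10.0 CPM in KO and 3.67 CPM in WT, and Itgae 1.91 CPM in KO and 1.01 CPM in WT, with log2 fold changes of 2.77, 1.36 and 0.84.

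Of 19 genes for integrin ligands in the matrix or on other cells, 18 were tested, 12 were higher, 5 were lower and Fn1, fibronectin, was not called, and 13 of the 18 (72.2%) were called with at least a 2-fold change, against 28.1% of all tested genes. Col1a1, Col1a2 and Col3a1 are on this list and on that of the fibroblast markers. The list was drawn up with earlier results of these data known, so its share of large changes is a description only. The 4 with the smallest p were all higher in KO. Lama4, a laminin alpha chain, averaged 88.3 CPM in KO and 2.98 CPM in WT (log2 fold change 4.81, edgeR adjusted p = 3.89e-11). Col3a1 averaged 1852 CPM in KO and 136 CPM in WT, Col1a2 10955 CPM in KO and 1788 CPM in WT, and Postn, periostin, 680.1 CPM in KO and 107 CPM in WT, with log2 fold changes of 3.69, 2.54 and 2.59. The 5 lower ligands, named after their values were seen, were Spp1 (osteopontin; 281 CPM in KO and 1295 CPM in WT), Tnc (tenascin-C), Thbs1 (thrombospondin-1) and the laminin chains Lama2 and Lamb1, with log2 fold changes of -2.28, -1.47, -0.84, -2.79 and -0.32. Laminin chains thus moved both ways. Of the laminin-binding subunits Itga3 and Itga6 were lower and Itga7 was higher, a call lost when some single libraries were left out. The collagen-binding chains Itga1, Itga10 and Itga11 were higher, and the fibronectin chain Itga5 was, like Fn1, not called. Itgb3 and Itgb5 were higher, while of the other ligands named here Spp1, Tnc and Thbs1 were lower and Postn was higher. A relation between chains and ligands was not tested.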

How the data were processed

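Polyadenylated RNA of 3 KO and 3 WT libraries was sequenced from a directional kit, per the labels. The authors aligned reads with STAR 2.7.10b to GRCm38, per the submitters' processing notes, and deposited raw counts per Ensembl gene, 1 file per library. The counting program, its annotation and its strand setting were not stated in any source (not given in the sources used here), so reads of opposite-strand genes may be included or lost.

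Symbols, positions and union exon lengths came from GENCODE M21, which held 28230 of 28293 identifiers and lacked 63. Levels are CPM, or CPM per kb of exon. KO was compared with WT over all genes that passed filterByExpr in edgeR 4.0.16 (R 4.3.3; TMM, quasi-likelihood test, Benjamini-Hochberg adjustment over 15081 genes). The procedure was tested on simulated data in which few genes changed, a setting that does not cover a difference as broad as the one here. A call is an adjusted p under 0.05, and SE is the log2 fold change over the root of F. A group with 0 reads in 3 libraries allows up to 0.0377 CPM in KO and 0.0409 CPM in WT (3 counts), and intervals cover counting error only. TMM shifts log2 fold changes by -0.08 against library totals. Alternatives were RLE size factors, library totals, no filter, at least 1 CPM in 3 libraries, DESeq2 1.42.0, limma-voom (limma 3.58.1), the replicate number as a block, a 1.5-fold minimum and omission of each library. Values per library are given for members called with at least 2-fold and 1 CPM in the higher group, and for Itgb1, Itgav, Itga5, Tln1, Vcl, Pxn and Ptk2. Ilk is also given per library, chosen after its spread was seen. Other members are given by means, and of the other adhesion genes and the ligands the 6 and 4 called genes with the smallest p and at least 5 CPM are named. Members and lists were chosen with earlier results of these data known. Plots used Python 3.11.15 with matplotlib 3.10.9.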

Additional observations from a re-analysis of the deposited data

How the results depend on the processing

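Of 25 called members, 24 kept their call and direction when each library was left out in turn and under the other scalings, filters and tests without a minimum fold; Itga7 lost its call in 4 of the omissions. No called member changed direction. Against a fold of 1.5, all tested genes gave 3094 higher and 2527 lower, receptor subunits 8 higher and 2 lower, adaptors 2 higher and 1 lower, and other adhesion genes 16 higher and 3 lower, because small changes then no longer pass. The adaptors' median log2 fold change was 0.15 under library totals and 0.000956 to 0.0901 when a library was left out. In those omissions all tested genes gave 5352 to 5678 higher and 5327 to 5775 lower, receptor subunits 8 to 9 higher, adaptors 4 to 5 lower, other adhesion genes 30 to 32 higher and 16 to 18 lower, ligands 5 to 6 lower, and the receptor median was 0.70 to 0.81. Ilk was also called with no filter (adjusted p = 4.32e-06). The uncalled values of Itga5, Tln1 and Vcl changed sign in some settings; the cause was not tested.

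Whether the replicate numbers pair the libraries was not settled. The correlations of same-numbered libraries were 0.147, -0.115 and 0.159, and not every library correlated best with its own number. With the replicate block, all tested genes gave 5832 higher and 5865 lower, receptor subunits 9 higher and 5 lower, and adaptors 8 higher and 5 lower, adding Pxn (adjusted p = 0.0354) and Ilk (adjusted p = 0.0451). Depth limits Itga2, Itga4, Itga9 and Itgb6, whose differences were not detectable.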

Other observations

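Itga1 and Itga2, which encode collagen receptor chains, lie 21 kb apart on mouse chromosome 13 (GRCm38). Itga1 averaged 5.85 CPM in KO and 1.42 CPM in WT, and Itga2 averaged 0.216 CPM in KO and 0.0982 CPM in WT, under the count filter. Itga5 and Itgb7 lie 1112 kb apart on chromosome 15, and Itga5 was not called (log2 fold change 0.05) while Itgb7 was higher in KO (2.39).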
